A study of Mus musculus with 8 samples.

Results

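A group of 9 genes, reported in the literature as targets of the microRNA miR-21, was followed in mammary tumours in which miR-21 had been sequestered. They are Pdcd4, Timp3, Reck, Tpm1, Serpinb5, Spry1, Spry2, Btg2 and Rhob, and they were taken by name from a table of 27179 genes, not by their values. All 9 were in the table and had enough counts to be tested, among 14382 genes tested. In the miR-21-KD tumours Pdcd4, Timp3, Serpinb5, Btg2 and Rhob were higher than in the VC tumours and Tpm1 and Spry1 were lower. For Reck and Spry2 the difference did not pass the test. The members therefore moved in both directions, including those that carry the longest match to the miR-21 seed.

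Whole primary tumours were taken from BALB/c mice, 4 with 4T1.13-VC and 4 with 4T1.13-miR-21-KD cells in the mammary fat pad, and their RNA was sequenced. 4T1.13 is a highly metastatic mouse mammary carcinoma line. The knockdown line carries a lentiviral vector whose H1 promoter drives a sequestering RNA against mature miR-21, and the vector control line carries the same vector with a scrambled sequence, so both groups share the vector backbone, its mCherry reporter and its hygromycin resistance. Each line was a pool of single-cell clones, and the host cells of a tumour carried no vector. The labels give 100000 injected cells and recovery at day 14, whereas the methods text gives another day. According to the methods text, the miR-21-KD tumours were starting to regress when taken. Differences due to sequestration and to regression therefore cannot be told apart in this design. Each sample is 1 tumour of 1 mouse.

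The gene counts of a tumour summed to between 12134849 and 13592695. A count of 0 allows up to 3 counts, equal to 0.221 to 0.245 CPM, for counting error only (CPM is a count relative to the size of its library). The precursor gene Mir21a had 0 counts in all 8 tumours, so this table does not show the targeted RNA, and sequestration need not change its level. Of the cell type markers, the carcinoma and epithelial list was present in both groups, with 7 of 10 genes higher and 1 lower after knockdown, and its summed level was 1300 to 2230 CPM in VC and 882 to 1940 CPM in miR-21-KD tumours. Most of that sum in VC tumours was Krt8 and Krt18 (means of 808 and 1022 CPM). Their log2 fold changes were -0.88 (adjusted p = 0.087) and -1.15 (adjusted p = 0.0374), so the sum and the count of genes go different ways. Leukocyte (7 of 12), fibroblast (7 of 8), pericyte and smooth muscle (7 of 9, with 1 lower), adipocyte (6 of 6) and basal epithelial (6 of 9) markers were higher in miR-21-KD tumours. Among the basal calls, Krt6a (12, 1, 5 and 0 counts in VC tumours 1 to 4) and Sprr1a (22, 2, 2 and 11 counts) were near the floor in VC tumours. They passed the filter on low counts only through miR-21-KD tumours, so the basal count is not read against the share of all genes. Of the endothelial markers 2 of 8 were higher, close to the 19.6% of all tested genes that were, with a median log2 fold change of 0.13, and skeletal muscle markers were near 0 in both groups (at most 5.90 CPM in sum, 0 of 1 tested passed). In bulk tissue, more cells of a type and more RNA per cell cannot be told apart, and this applies to every gene described here.

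A microRNA guides the silencing complex to messenger RNAs through its seed, the bases after the first, which pair with matches that lie mostly in the 3′ untranslated region (UTR). Binding lowers translation and shortens the life of the message, so a relieved target can rise at the RNA level, at the protein level or both. MiR-21 is among the most abundant microRNAs in carcinomas, where its reported targets include inhibitors of translation, of extracellular proteolysis, of growth factor signalling and of cell motility.

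The mature miR-21a-5p and miR-21c, the 2 entries with this seed among 1738 mature mouse microRNAs of RefSeq (GRCm38.p6), are shown because every match below is read against them. Capitals mark bases 2 to 8, the seed.
mmu-miR-21a-5p, chr11:86584120-86584141, minus strand: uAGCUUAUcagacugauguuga
mmu-miR-21c, chr8:128278188-128278208, minus strand: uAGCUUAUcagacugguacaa

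The annotated 3′ UTRs of the members (GENCODE M21, GRCm38, the coding transcript with the longest 3′ UTR) were searched on the sense strand for 4 nested matches, and each site was given its longest one. The 8mer is ATAAGCTA, which pairs with bases 1 to 8 of miR-21a-5p. The 7mer-m8 is ATAAGCT, the 7mer-A1 is TAAGCTA and the 6mer is TAAGCT. Pdcd4, Timp3, Reck, Spry1 and Spry2 each hold an 8mer, Rhob a 7mer-m8 and Btg2 a 7mer-A1. No match was found in the UTRs of Tpm1 (1899 bases) and Serpinb5 (1355 bases), which says only that these letters are not in those windows. Of 13347 tested genes with an annotated 3′ UTR, 2.29% held an 8mer, 5.47% a 7mer-m8, 4.58% a 7mer-A1 and 14.1% a 6mer as their longest match. The site of each member is shown with the bases before it, so that the members can be compared at the match itself. The capitals are the bases that match.
Pdcd4, chr19:53929418-53929439, plus strand, 8mer: gtgtgggtgttctgATAAGCTA
Timp3, chr10:86348213-86348234, plus strand, 8mer: tttttgagctttcaATAAGCTA
Reck, chr4:43944393-43944414, plus strand, 8mer: ttttacagtttgaaATAAGCTA
Spry1, chr3:37643859-37643880, plus strand, 8mer: atgtaagtgcttaaATAAGCTA
Spry2, chr14:105892498-105892519, minus strand, 8mer: gagacccacattgcATAAGCTA
Rhob, chr12:8497718-8497739, minus strand, 7mer-m8: tacataagagttctATAAGCTg
Btg2, chr1:134075452-134075473, minus strand, 7mer-A1: atagtggtaagtttgTAAGCTA

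In Pdcd4, complementarity to miR-21a-5p ran without a gap from base 2 to base 12 of the microRNA, a run of 11 bases. Only 5 of the 13347 genes with a UTR (0.0375%) had a run as long, and the others, named after their values were seen, were Dhrs9, Gng2, Rint1 and Snrpa1. Their log2 fold changes were 0.89 (adjusted p = 0.0071), 0.47 (adjusted p = 0.0743), -0.46 (adjusted p = 0.0152) and -0.34 (adjusted p = 0.0559), so Dhrs9 rose, Rint1 fell and the other two did not pass. In the other members with an 8mer the run ended at base 8. Of the 3 annotated coding transcripts of Pdcd4, 2 hold the site, and counts per gene do not separate them. The 1 coding transcript of Timp3 has a 6mer as well, 2850 bases after the stop codon.

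**Figure D1:**
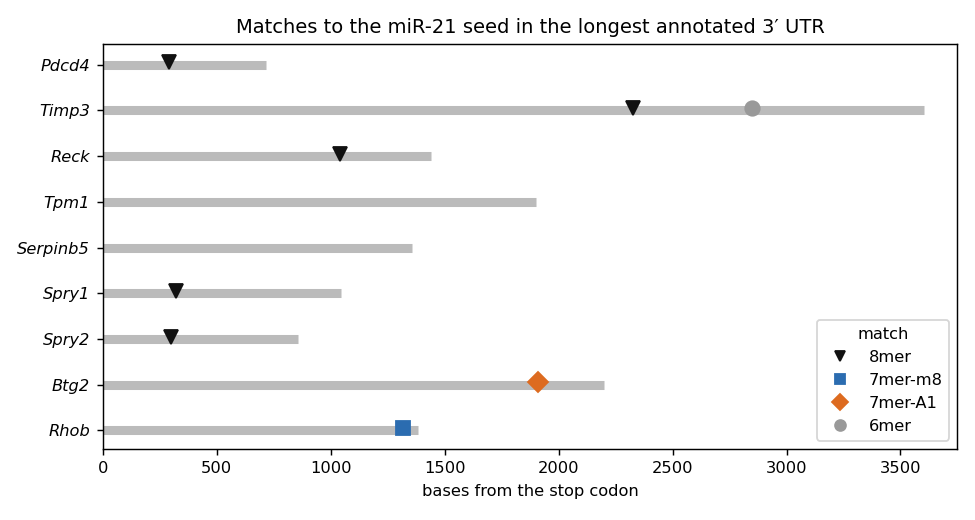
Longest annotated 3′ UTR of each member, drawn to scale in bases from the stop codon (grey bars), with the matches to the miR-21 seed by class (symbols). The 8mers of Pdcd4, Spry1 and Spry2 start 289, 322 and 298 bases after the stop codon and those of Reck and Timp3 at 1042 and 2325, the match of Rhob starts at 1317 of 1381 bases, and Tpm1 and Serpinb5 show none.

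Relative to their exon length, the members covered a wide range of levels. In VC tumours Rhob (65.8 CPM per kb) and Tpm1 (51.7 CPM per kb) were the highest. Timp3, Spry1, Btg2 and Spry2 followed between 15.1 and 16.4 CPM per kb, an interval smaller than the spread of Timp3, Spry1 or Btg2 among VC tumours, so their order is not resolved. Pdcd4 (8.39), Reck (3.71) and Serpinb5 (1.23 CPM per kb) were lower. In miR-21-KD tumours Timp3 (47.7 CPM per kb) stood above Tpm1 (34.3) and Btg2 (33.7), and Spry1 (4.00) was close to Reck (3.35).

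At an adjusted p under 0.05, 5 of the 9 members were higher with miR-21 sequestered, against 19.6% of all tested genes, and 2 were lower, against 19.5%. With 1 tumour left out, 2 to 5 members were higher: 2 without VC replicate 2, KD replicate 1 or KD replicate 4, and 3 without VC replicate 3 or KD replicate 3. The number of all genes called higher, 2826, also moved with the omission, between 1449 and 3290. The median log2 fold change of the members was 0.48, and that of all tested genes was -0.01. In 4 members each miR-21-KD tumour exceeded each VC tumour, against 16.3% of all genes, and in 2 each was below, against 18.9%. The list was assembled by name with results of these tumours known, and no test of the list as a whole was made.

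**Figure D2:**
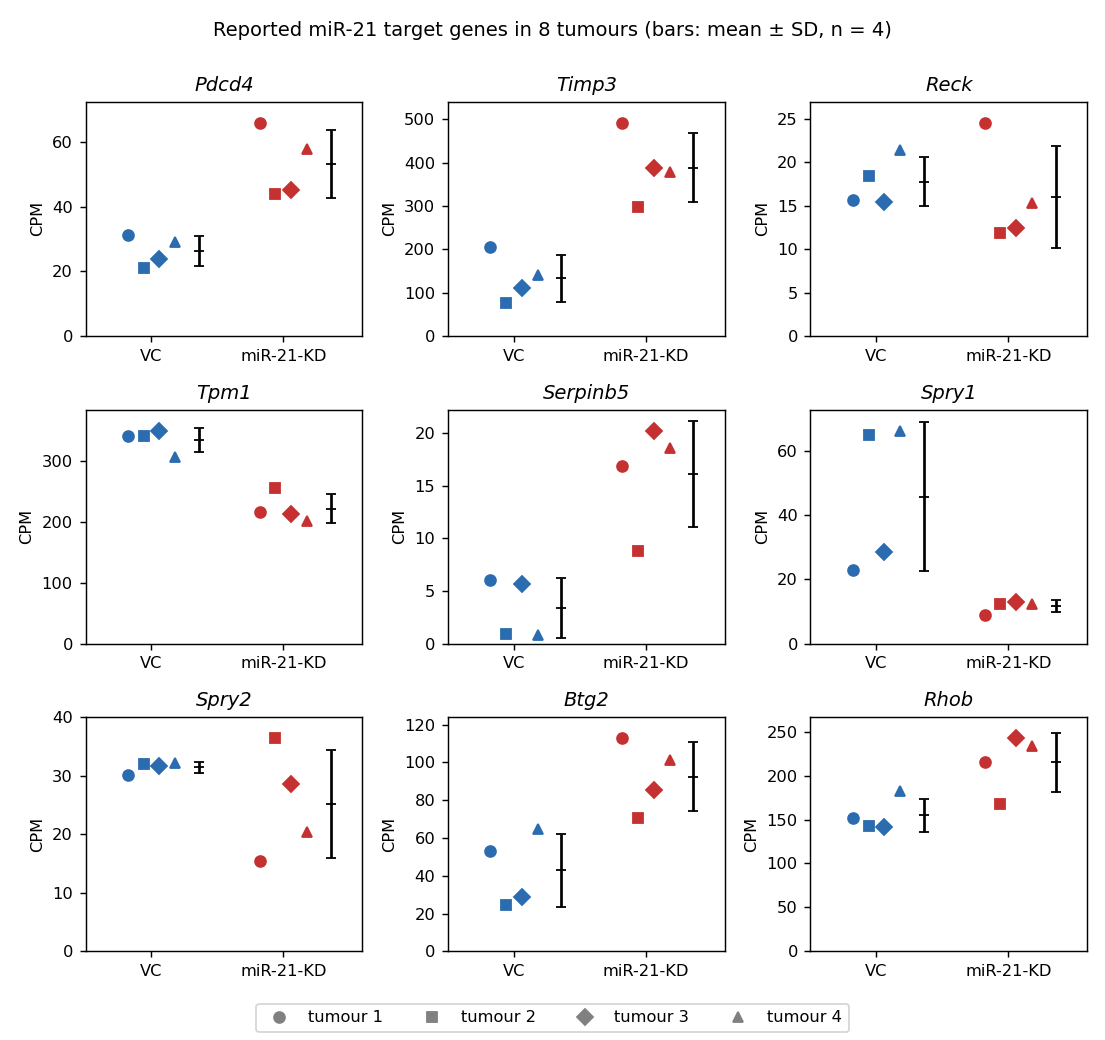
CPM of each member in the 8 tumours, one panel per gene on a linear axis from 0, with VC in blue, miR-21-KD in red, a symbol for each tumour number, and the mean ± SD (n = 4) as a bar. The groups are apart for Pdcd4, Timp3, Serpinb5, Btg2 (miR-21-KD above) and for Tpm1 and Spry1 (miR-21-KD below), and they overlap for Reck, Spry2 and Rhob.

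Pdcd4 (Entrez 18569) encodes a protein that binds the RNA helicase EIF4A and restrains cap-dependent translation. It was at 31.3, 20.98, 23.8 and 29.0 CPM in VC tumours 1 to 4 and at 66.0, 44.0, 45.2 and 58.1 CPM in miR-21-KD tumours 1 to 4. Every miR-21-KD tumour was above every VC tumour, and in both groups tumour 1 was the highest and tumour 2 the lowest. The means were 26.3 ± 4.74 and 53.3 ± 10.6 CPM (SD, n = 4 each), giving a log2 fold change of 1.02 (95% confidence interval 0.62 to 1.42, adjusted p = 0.00674), or 2.03-fold. This call held under all 16 alternative analyses, in which the adjusted p was at most 0.0271.

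Partners and regulators of PDCD4 were read beside it. Of 8 genes of the cap-dependent initiation complex and of PDCD4 turnover, 4 were lower and 0 higher (19.5% and 19.6% over all tested genes), with a median log2 fold change of -0.37. Eif4b, a cofactor of the helicase, fell by 0.48 on the log2 scale (adjusted p = 0.00799), and Btrc, a subunit of the ubiquitin ligase that marks PDCD4 for degradation, fell by 0.62 (adjusted p = 0.00858). Eif4a1, the helicase gene itself, and Eif4e, which encodes the cap-binding protein, were the others that fell, and both are named after their values were seen.

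Timp3 (Entrez 21859) encodes a matrix-bound inhibitor of metalloproteinases. Its level was 205, 75.8, 112 and 141 CPM in VC tumours 1 to 4 and 491, 299, 387 and 378 CPM in miR-21-KD tumours 1 to 4. The groups did not overlap, although VC tumours differed among themselves more than miR-21-KD tumours did in proportion. The means of 133 ± 54.5 and 389 ± 79.1 CPM (SD, n = 4 each) gave a log2 fold change of 1.54 (95% confidence interval 0.89 to 2.20, adjusted p = 0.00788), or 2.92-fold. Exons of Syn3 overlap those of Timp3 on the opposite strand, and whether the counting used strand is not known, so reads of the 2 genes cannot be told apart there. Syn3 was given 31 to 49 counts in a tumour.

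Reck (Entrez 53614), a membrane-anchored inhibitor of matrix metalloproteinases, behaved otherwise. It was at 15.6, 18.4, 15.5 and 21.4 CPM in VC tumours 1 to 4 and at 24.5, 11.9, 12.4 and 15.3 CPM in miR-21-KD tumours 1 to 4. A single miR-21-KD tumour was above every VC tumour and the other 3 were below. The means were 17.7 ± 2.81 and 16.0 ± 5.85 CPM (SD, n = 4 each), with a log2 fold change of -0.15 (95% confidence interval -0.70 to 0.40, adjusted p = 0.649). On the log2 scale the interval stays within 1 of no change in either direction. Without KD replicate 1, the high tumour, the log2 fold change was -0.43 (adjusted p = 0.0876), and without KD replicate 2 it was -0.03, with adjusted p from 0.0876 to 0.918 over all alternatives.

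Among 10 metalloproteinases that TIMP3 or RECK inhibit, 4 were higher and 1 lower (19.6% and 19.5% over all tested genes), with a median log2 fold change of 0.44. Mmp9, a gelatinase, went from 623 ± 71.8 to 2115 ± 629 CPM (mean ± SD, 4 tumours each), with a log2 fold change of 1.76 (adjusted p = 0.00501). Mmp13, a collagenase, rose by 2.12 on the log2 scale (adjusted p = 0.00585), and Mmp3, a stromelysin, fell by 0.73 (adjusted p = 0.0326).

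Serpinb5 (Entrez 20724) encodes maspin, a serpin of epithelial and myoepithelial cells known to limit invasion, and it has no seed match in the searched UTR. It was at 6.05, 0.957, 5.67 and 0.817 CPM in VC tumours 1 to 4 and at 16.9, 8.80, 20.2 and 18.6 CPM in miR-21-KD tumours 1 to 4. VC tumours 1 and 3 were well above VC tumours 2 and 4, and all miR-21-KD tumours were above both pairs. The means were 3.37 ± 2.88 and 16.1 ± 5.06 CPM (SD, n = 4 each), with a log2 fold change of 2.25 (95% confidence interval 0.80 to 3.69, adjusted p = 0.0248), the widest interval of the members. The call was lost without VC replicate 2 or KD replicate 1 (adjusted p = 0.0517 each), KD replicate 3 (adjusted p = 0.0603) or KD replicate 4 (adjusted p = 0.0613), and its adjusted p ran from 0.0013 to 0.0613 over all alternatives.

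The basal and squamous epithelial markers were read beside Serpinb5. Their summed level was 80.1, 23.9, 47.1 and 21.8 CPM in VC tumours 1 to 4 and 383, 68.4, 260 and 282 CPM in miR-21-KD tumours 1 to 4, and the VC tumours stood in the same order for the sum and for Serpinb5. The miR-21-KD tumours did not, since tumour 1 had the highest sum but only the third level of Serpinb5. For each 1000 CPM of these markers Serpinb5 was at 68.4 ± 38.9 CPM in VC tumours and 79.1 ± 35.9 CPM after knockdown (mean ± SD, 4 tumours each), with overlap between the groups. The part of these cells in the rise of Serpinb5 was not tested.

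Tpm1 (Entrez 22003) encodes a tropomyosin, which coats actin filaments, and it too has no seed match in the searched UTR. It stood at 341, 342, 351 and 307 CPM in VC tumours 1 to 4 and at 216, 256, 214 and 203 CPM in miR-21-KD tumours 1 to 4. All miR-21-KD tumours were below all VC tumours, and the spread in each group was small. The means of 335 ± 19.4 and 222 ± 23.4 CPM (SD, n = 4 each) gave a log2 fold change of -0.59 (95% confidence interval -0.82 to -0.37, adjusted p = 0.00635). This was the smallest adjusted p of any member. Pericyte and smooth muscle markers, which mark cells rich in tropomyosin, were read beside Tpm1. Of 9 such markers, 7 were higher and 1 was lower, against 19.6% and 19.5% of all tested genes. The lower one was Mcam (log2 fold change -0.64, adjusted p = 0.0235). The part of these cells in the fall of Tpm1 was not tested. Reads of the tropomyosin genes could have been exchanged where their exons are alike, and 16 coding transcripts of Tpm1 with one another.

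Spry1 (Entrez 24063) and Spry2 (Entrez 24064) encode sprouty proteins, which restrain signalling from receptor tyrosine kinases to ERK. Spry1 was at 23.0, 65.1, 28.5 and 66.3 CPM in VC tumours 1 to 4 and at 8.81, 12.5, 12.9 and 12.3 CPM in miR-21-KD tumours 1 to 4. VC tumours 2 and 4, the low ones for Serpinb5, were the high ones for Spry1, and every miR-21-KD tumour was below every VC tumour. From 45.7 ± 23.2 to 11.6 ± 1.89 CPM (SD, n = 4 each) the log2 fold change was -1.97 (95% confidence interval -2.80 to -1.15, adjusted p = 0.00759), or 0.255-fold of the VC level. Of the members with an 8mer, it was the only one to fall at this threshold, and the call held under all 16 alternatives. Exons of the gene Gm42922 overlap those of Spry1 on the opposite strand, with the same limit.

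For Spry2 the VC tumours were nearly alike, at 30.2, 32.0, 31.6 and 32.1 CPM in tumours 1 to 4. The miR-21-KD tumours were at 15.4, 36.4, 28.6 and 20.4 CPM, so 3 lay below all VC tumours and 1 above. The means were 31.5 ± 0.900 and 25.2 ± 9.21 CPM (SD, n = 4 each), with a log2 fold change of -0.32 (95% confidence interval -0.85 to 0.21, adjusted p = 0.298). Without KD replicate 2, the high tumour, it was -0.56 (adjusted p = 0.0445, within 0.0445 to 0.566 over all alternatives).

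Of 12 transcriptional outputs of ERK signalling, 2 were higher and 2 lower, near the 19.6% and 19.5% of all tested genes, with a median log2 fold change of -0.22. Ccnd1, which encodes cyclin D1, fell by 1.58 on the log2 scale (adjusted p = 0.0309) and Etv4, an ETS factor, by 1.35 (adjusted p = 0.0260), while Ier3, an early response gene, rose by 1.09 (adjusted p = 0.0168) and Epha4, an ephrin receptor gene, by 1.21 (adjusted p = 0.0188).

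Btg2 (Entrez 12227), an antiproliferative gene that p53 induces, was at 53.2, 24.5, 28.8 and 65.0 CPM in VC tumours 1 to 4 and at 113, 70.7, 85.4 and 101 CPM in miR-21-KD tumours 1 to 4. The lowest miR-21-KD tumour was just above the highest VC tumour. With means of 42.9 ± 19.4 and 92.5 ± 18.4 CPM (SD, n = 4 each), the log2 fold change was 1.11 (95% confidence interval 0.40 to 1.82, adjusted p = 0.0242). It did not pass without VC replicate 2 (adjusted p = 0.0506), VC replicate 3 (adjusted p = 0.0655), KD replicate 1 (adjusted p = 0.0593) or KD replicate 4 (adjusted p = 0.0616), within 0.00149 to 0.0655 over all alternatives.

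Rhob (Entrez 11852) encodes a small GTPase of endosomes that is induced rapidly by stress and growth factors. It was at 152, 142, 142 and 182 CPM in VC tumours 1 to 4 and at 216, 168, 242 and 234 CPM in miR-21-KD tumours 1 to 4. In all, 3 miR-21-KD tumours were above all VC tumours, and tumour 2 was below the highest of them. The means were 155 ± 18.9 and 215 ± 33.3 CPM (SD, n = 4 each), and the log2 fold change was 0.48 (95% confidence interval 0.17 to 0.78, adjusted p = 0.0252), the smallest of the members that rose. The call was absent without VC replicate 1 (adjusted p = 0.0504), VC replicate 2 (adjusted p = 0.0740), VC replicate 3 (adjusted p = 0.0766), KD replicate 1 (adjusted p = 0.0524), KD replicate 3 (adjusted p = 0.0684) or KD replicate 4 (adjusted p = 0.0697), so of the 8 omissions only 2 kept it. These omissions ignored the tumour numbers. In all 4 pairs of the same number the miR-21-KD tumour was the higher one, and with the replicate block the log2 fold change was 0.47 (adjusted p = 0.0154). With that block Btg2 (adjusted p = 0.00452) and Serpinb5 (adjusted p = 0.0107) passed as well. The labels name no pairs and the pairing was read from these same data, so it gives no separate support to Rhob. Over all alternatives its adjusted p ran from 0.00119 to 0.0766.

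Both Btg2 and Rhob respond early to stimulation. Of 13 immediate early genes, 7 were higher and 0 lower after knockdown, against 19.6% and 19.5% of all tested genes, with a median log2 fold change of 0.48 and summed levels of 820 to 1060 CPM in VC and 1130 to 1430 CPM in miR-21-KD tumours. Zfp36, which encodes a protein that destabilises messages, rose by 0.94 (adjusted p = 0.00671) and Ier2 by 0.54 on the log2 scale (adjusted p = 0.0135). How handling or the state of the tissue bears on this was not tested.

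**Figure D3:**
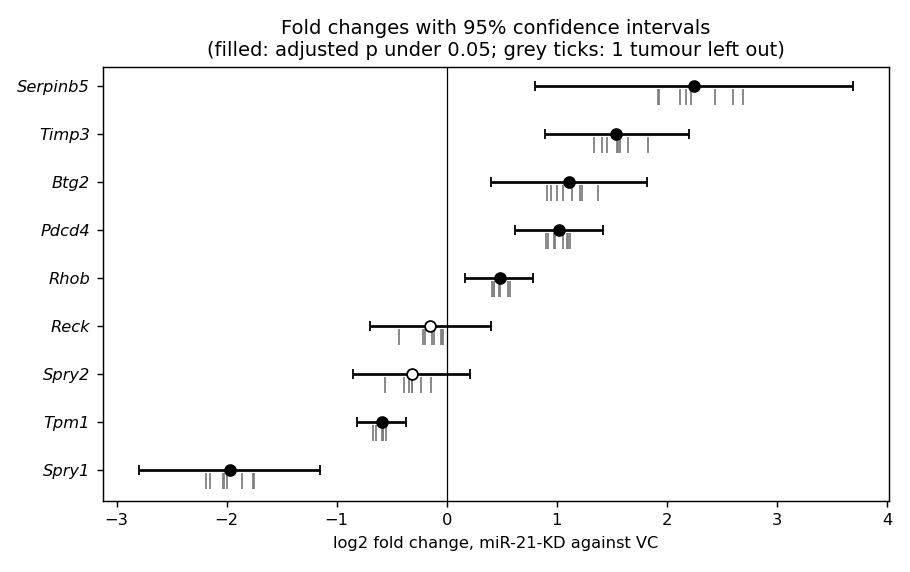
Log2 fold change of each member in miR-21-KD against VC tumours with its 95% confidence interval, filled where the adjusted p is under 0.05, and the values with 1 tumour left out as grey ticks. Intervals run from 0.80 to 3.69 for Serpinb5 and from -2.80 to -1.15 for Spry1, those of Reck and Spry2 include 0, and no omitted tumour turned a direction.

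Fibroblast markers varied between tumours in step with some members. The summed level of 8 fibroblast genes, Col1a1 and Col1a2 with the smallest adjusted p among them, was 8774, 3390, 5045 and 7002 CPM in VC tumours 1 to 4 and 24540, 10910, 13330 and 14430 CPM in miR-21-KD tumours 1 to 4. The tumours of each group stood in the same order for this sum and for Pdcd4, and Timp3 in VC and Btg2 in miR-21-KD tumours shared that order as well. The order was not particular to fibroblast markers or to members that rose, since in miR-21-KD tumours Reck and the leukocyte and basal sums had it too, and in VC tumours the adipocyte sum. In VC tumours Rhob stood in the order of the leukocyte sum. For each 1000 CPM of these markers, Timp3 was at 22 ± 1.34 CPM in VC tumours and 25.7 ± 3.93 CPM after knockdown (mean ± SD, 4 tumours each), Pdcd4 at 4.66 ± 1.12 and 3.53 ± 0.640 CPM, and Btg2 at 7.07 ± 1.61 and 6.13 ± 1.06 CPM. In each of these 3 ratios the groups overlapped, which the CPM values did not. The collagen genes Col3a1, Col1a1 and Col1a2 led the sum (means of 2748, 1257 and 979 CPM in VC tumours). The ratios are thus mainly to collagen messages. Pdgfra, on the same list, did not pass (log2 fold change -0.36, adjusted p = 0.176). For each 1000 CPM of pericyte and smooth muscle markers, Timp3 (294 ± 102 and 664 ± 46.5 CPM) and Pdcd4 (58.5 ± 9.93 and 91.4 ± 10.2 CPM) stayed apart between the groups, while Btg2 overlapped (94.4 ± 39.2 and 159 ± 17.1 CPM). Mcam, which fell, had the highest mean of these markers in VC tumours (187 ± 44.6 CPM, and 120 ± 19.1 CPM after knockdown). Mcam therefore weighs on these ratios, which were not computed without it. Relative to adipocyte markers, Pdcd4 (143 ± 53.7 and 57.5 ± 17.5 CPM) and Btg2 (216 ± 76.4 and 99 ± 26.6 CPM) were apart the other way, with miR-21-KD below VC tumours, and Timp3 overlapped. For leukocyte and for basal markers all 3 genes overlapped. The part of any of these cells in the rise of the members was not tested.

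**Figure D4:**
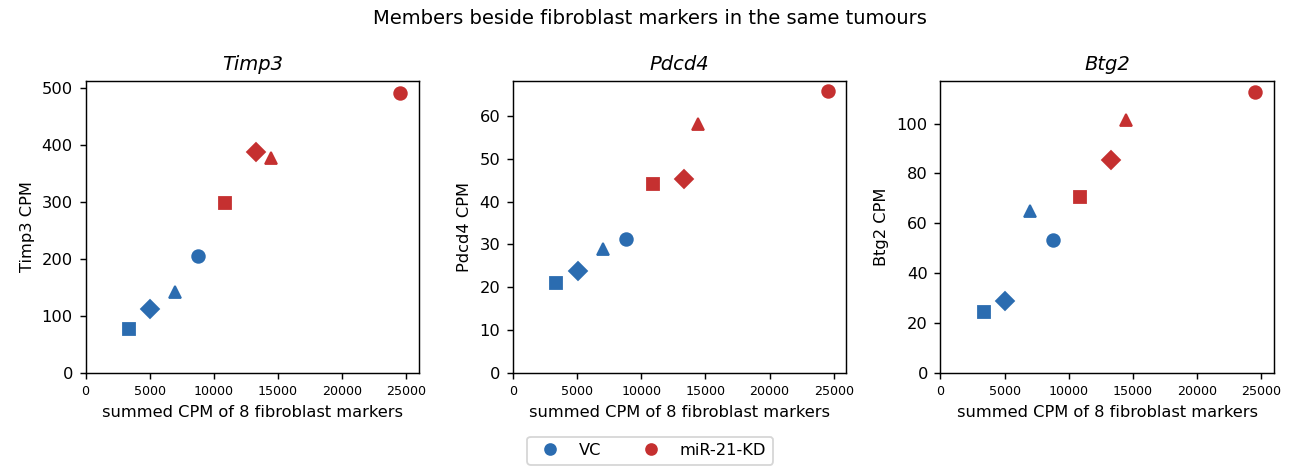
CPM of Timp3, Pdcd4 and Btg2 (vertical axes, linear from 0) against the summed CPM of 8 fibroblast markers (horizontal axes) in the same 8 tumours, with VC in blue and miR-21-KD in red and one symbol per tumour number (circle 1, square 2, diamond 3, triangle 4). The sum runs from 3390 to 8774 CPM in VC and from 10910 to 24540 CPM in miR-21-KD tumours, and tumour 2 is the lowest of its group in every panel.

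Seed matches were also read across all tested genes. Of the 305 genes whose longest match is an 8mer, 22% were higher and 17.7% were lower in knockdown tumours, with a median log2 fold change of 0.02. Of the 9822 genes with no match, 20.2% were higher and 20.1% lower, with a median of -0.02. Genes with a 7mer-m8 (730) stood at 22.2% and 19.7%, and those with a 7mer-A1 (611) at 17.3% and 21.9%. The 8mer genes have longer UTRs, with a median of 3060 bases against 874 without a match, so the classes differ in more than the match. Of the 5 members with an 8mer, 2 were higher and 1 lower.

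**Figure D5:**
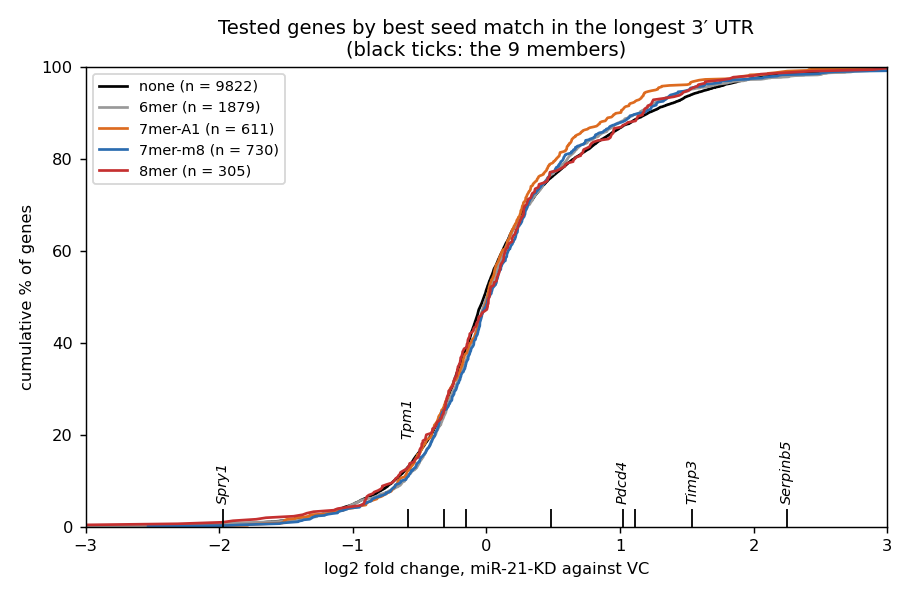
Cumulative share of tested genes (vertical axis, %) by log2 fold change in miR-21-KD against VC tumours (horizontal axis, drawn from -3 to 3), by the longest seed match in the 3′ UTR, with ticks for the 9 members. The curves of the 305 8mer genes and the 9822 genes without a match run close together (medians 0.02 and -0.02), and the members spread from -1.97 (Spry1) to 2.25 (Serpinb5).

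Further reported targets were read from a list of 24 genes, of which 21 could be tested. Of these, 5 were higher and 5 lower, near the shares of all tested genes (19.6% and 19.5%), with a median log2 fold change of 0.03. Tgfbi, an extracellular matrix protein gene, was at 492 ± 65.9 CPM against 950 ± 122 CPM after knockdown (mean ± SD, 4 tumours each) and rose by 0.95 on the log2 scale (adjusted p = 0.00569), and Jag1, which encodes a Notch ligand, rose by 0.83 (adjusted p = 0.00758). Nfib, which encodes a transcription factor, fell by 0.48 (adjusted p = 0.0157) although its UTR holds an 8mer. Among the 14 with an 8mer or a 7mer-m8, 4 were higher and 3 lower (median 0.21), and among the 7 without, 1 was higher and 2 lower (median -0.29).

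The closest relatives of the members gave a comparison within families. Of 16 such genes, 14 were tested, 6 were higher and 3 lower (19.6% and 19.5% over all tested genes), with a median log2 fold change of -0.11. Timp4, another metalloproteinase inhibitor gene, had 7, 1, 0 and 4 counts in VC and 28, 21, 20 and 27 counts in miR-21-KD tumours 1 to 4. It passed the filter on low counts only through the miR-21-KD tumours, and its VC level lies at the floor, so no fold is given and its call, 1 of the 6, is not read against the share of all genes. Tpm2 rose by 1.16 (adjusted p = 0.0105) where Tpm1 fell, and Rhoc fell by 0.87 (adjusted p = 0.00664) where Rhob rose. Spred2, which encodes a sprouty-related inhibitor of ERK signalling, fell by 0.73 (adjusted p = 0.00828), as Spry1 did.

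The genes that make and use microRNAs were read as a further group. Of 13 genes for processing and silencing, 1 was higher, 1 was lower and 11 did not pass, against 19.6% higher and 19.5% lower over all tested genes, with a median log2 fold change of -0.01. Ago4, an Argonaute gene, rose by 1.27 (adjusted p = 0.0180) from 6.15 ± 2.08 to 14.8 ± 4.96 CPM (SD, n = 4 each), and Drosha, the nuclease of primary transcripts, fell by 0.66 (adjusted p = 0.0429) with overlap between the groups. For Vmp1, the gene that overlaps Mir21a, the log2 fold change was 0.04 (SE 0.08, adjusted p = 0.704).

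Likeness between genes was measured as Pearson r over the 8 tumours after removal of the group means, among 13257 genes. The gene most like Pdcd4 was Dact3 (0.996), those most like Timp3 were A4galt (0.996) and Prg4 (0.992), and those most like Btg2 were Prr16 (0.997) and Foxred2 (0.987). Tpm1 was most like Uaca (0.993) and Zfp207 (0.991), Spry2 most like Coq4 (0.998) and Fastkd3 (0.996), and Spry1 most like Cdon (0.971) and Spout1 (0.950). Reck, Serpinb5 and Rhob had their nearest genes at 0.982 (Dock6) and 0.979 (Tasor), at 0.980 (Prss46) and 0.972 (Cldn6), and at 0.98 (Selenok) and 0.974 (Dkkl1). With so many genes and only 8 tumours every member had neighbours at 0.950 or above, so these names are a description. Among the members themselves, Pdcd4, Timp3 and Btg2 were alike (0.83 to 0.86), and the most opposed pairs were Tpm1 and Rhob (-0.96) and Serpinb5 and Spry1 (-0.90).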

How the data were processed

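Whole tumours were profiled by RNA sequencing (4 VC, 4 miR-21-KD). The deposited values are raw counts, 1 column a tumour and 1 row a gene, named by Entrez identifier. Their processing notes name Subread, featureCounts, edgeR and limma and the build mm10. Versions, the annotation and the strand setting are not given in the sources used here. Symbols came from RefSeq (GRCm38.p6) for 25275 of 27179 identifiers.

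The filter filterByExpr of edgeR 4.0.16 (R 4.3.3; minimum count 10, minimum total 15) left 14382 genes and 99.852% of counts. After TMM scaling, p-values of the robust quasi-likelihood test were adjusted by Benjamini-Hochberg over all of them, with a threshold of 0.05. Standard errors came from the estimate and its F statistic, CPM values use TMM-scaled library sizes, and log2 CPM used a prior count of 2. CPM per kb uses the union of annotated exons. The test was checked on simulated counts. Alternatives were DESeq2 1.42.0, limma-voom (limma 3.58.1) with and without quality weights, other scalings and filters, a block and the omission of each tumour.

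The members and lists were chosen with earlier results of these data known. All members are named, and of each other list the 2 genes with the smallest adjusted p in each direction, except that marker lists are given by their sums. Some markers are named after their values were seen. The likeness rule names 2 genes per member with at least 1 log2 CPM. Some genes that these rules name are not reported here.

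Tumours carry the numbers 1 to 4 in each group. After removal of group means, same-numbered tumours correlated at 0.272, 0.421, 0.175 and 0.376, so the numbers were read as pairs from the data. The labels name no pairing, and the values reported use no block. No 2 tumours of a group agreed within sampling noise (chi-square per degree of freedom 12.6 to 70.7).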

Additional observations from a re-analysis of the deposited data

Results flagged for a closer look

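In Spry1, miR-21-KD tumour 1 stood apart from the others of its group by Dixon's test, with 8.81 CPM against 12.3 to 12.9 CPM in the other 3 (gap over range 0.850, above the 95% critical value). It was the only 1 of 18 groups of 4 tumours examined over the 9 members, and chance alone flags about 5% of groups.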

How the results depend on the processing

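Over 16 alternatives, 129 of 144 log2 fold changes of the members kept their direction and their side of the threshold, 14 no longer passed, 1 newly passed and 0 turned direction. All 15 changes came from the omission of a tumour, and none from DESeq2, limma-voom, scaling, filters or the replicate block. With the replicate block, which pairs tumours of the same number, 5 members were higher and 2 lower, as without it, and no call changed. The number of members called higher was 2 to 5 over the omitted tumours, and that called lower was 2 to 3. It was 2 higher without VC replicate 2, KD replicate 1 or KD replicate 4, and 3 without VC replicate 3 or KD replicate 3. Pdcd4, Timp3, Tpm1 and Spry1 passed in every fit. Over all tested genes, 2826 were higher and 2800 lower, against 1449 to 3290 and 1487 to 3550 over the omitted tumours. The count moved by over 1.5 times without VC replicate 3 (1449 and 1487), VC replicate 2 (1702 and 1588), KD replicate 4 (1754 and 1612), KD replicate 1 (1862 higher) or KD replicate 3 (1768 lower). Read from any coding transcript rather than the longest UTR, 323 genes held an 8mer, with 23.5% higher and 17.0% lower. Serpinb5 had few counts in VC tumours 2 and 4, which limits its precision. With 4 tumours per group, a difference that did not pass was not shown to be absent.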
